A study of Homo sapiens with 8 samples.

Results

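Cholesterol synthesis and its control by the transcription factor SREBP2 were followed through 7 genes in the human neuroblastoma line SH-SY5Y, whose cells are labelled neuronal progenitors. The genes were taken by name from a table of 67060 genes: SREBF2 and INSIG1, which control the pathway, and the enzyme genes HMGCS1, IDI1, SQLE, LSS and DHCR7. All 7 passed the filter on low counts, as did 21993 genes in all. The study compared 4 libraries of cells given an adenovirus for BioID-Flag-ERRg (called ERRg here) with 4 given an adenovirus for BioID-GFP-NLS (called GFP here). BioID is a biotin ligase used for proximity labelling, ERRg is the orphan nuclear receptor encoded by ESRRG, and NLS is a nuclear localisation signal. Both groups therefore carried an adenovirus and the ligase. Cells at 80% confluence received 0.5 ul of virus and RNA was isolated 48 h later, so the design holds a single line and a single time. Whether replicates are separate cultures is not labelled; p-values therefore rest on the spread between these libraries, which may be technical.

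Cells make cholesterol from acetyl-CoA through mevalonate, the isoprenoids and squalene. SREBP2, the product of SREBF2, is held in the endoplasmic reticulum by the escort protein SCAP and the INSIG proteins while sterols are plentiful. When sterols fall, it moves to the Golgi, is cut by the proteases encoded by MBTPS1 and MBTPS2, and enters the nucleus, where it binds sterol response elements beside NF-Y sites in the promoters of the pathway's genes. INSIG1 is itself a target, which closes a feedback loop. Neural cells supply much of their own cholesterol through this pathway.

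Promoter sequences are shown for the control genes and for the enzyme genes with the strongest rise and fall, because SREBP2 acts at such promoters. They are the 250 bases before an annotated start (RefSeq, GRCh38.p14), 5′ to 3′ on the gene's strand. A gene can have several windows, and those of these genes without a match before the start are not shown. The DHCR7 window lies inside the gene's span of 71428193 to 71452868, not at the end where that span starts. Capitals mark exact matches, on either strand, to the sterol response element TCACNCCAC, the ERR response element TNAAGGTCA, the NF-Y box CCAAT or the E-box CACGTG.
SREBF2 (chr22:41832855-41833104, plus strand): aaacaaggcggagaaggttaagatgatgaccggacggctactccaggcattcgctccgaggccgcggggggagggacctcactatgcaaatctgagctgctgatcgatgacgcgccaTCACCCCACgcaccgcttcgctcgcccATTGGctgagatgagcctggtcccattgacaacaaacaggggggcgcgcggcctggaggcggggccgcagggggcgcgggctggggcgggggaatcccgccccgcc
INSIG1 (chr7:155297628-155297877, plus strand): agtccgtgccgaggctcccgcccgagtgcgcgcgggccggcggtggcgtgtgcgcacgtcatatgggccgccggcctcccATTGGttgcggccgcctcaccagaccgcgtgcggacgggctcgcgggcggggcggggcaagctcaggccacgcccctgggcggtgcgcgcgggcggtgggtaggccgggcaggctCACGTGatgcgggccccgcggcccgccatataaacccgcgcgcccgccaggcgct
HMGCS1 (chr5:43313413-43313662, minus strand): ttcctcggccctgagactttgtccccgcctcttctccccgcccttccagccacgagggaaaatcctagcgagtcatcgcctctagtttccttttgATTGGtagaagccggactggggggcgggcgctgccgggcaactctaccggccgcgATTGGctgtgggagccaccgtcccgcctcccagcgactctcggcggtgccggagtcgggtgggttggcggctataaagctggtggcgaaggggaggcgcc
DHCR7 (chr11:71448394-71448643, minus strand): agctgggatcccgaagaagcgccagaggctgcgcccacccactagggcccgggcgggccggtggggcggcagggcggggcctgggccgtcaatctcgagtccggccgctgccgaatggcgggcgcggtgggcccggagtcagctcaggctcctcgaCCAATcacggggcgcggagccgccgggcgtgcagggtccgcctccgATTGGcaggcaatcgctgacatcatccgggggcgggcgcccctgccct

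The sterol response element was found in the SREBF2 window, 133 bases before the start, with an NF-Y box 106 bases before the start. That element occurred in 1.13% of all 35116 promoter windows of 300 bases (250 before and 50 after the start). An NF-Y box occurred in at least 1 window of each of the 6 genes that matched the promoter table, against 39.7% of all genes in that table. It was in 7 of the 10 windows of these genes, against 34.6% of all windows. HMGCS1 had it at 155 and 100 bases before the start, INSIG1 at 170, LSS at 150, and DHCR7 at 94 and 48. Of the 3 IDI1 windows, 2 held it, and in one of these the matches 132 and 129 bases before the start overlap each other. The E-box (7.26% of all windows) was found in INSIG1 55 bases before the start and in LSS 41 bases after it. No window of these genes held TNAAGGTCA, which was present in 0.951% of all windows. A match of letters is a description of the sequence and shows no binding. Only exact matches to 1 form of each element were sought, so a window without a match may still hold another form. SQLE had no entry to match.

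The libraries differed in makeup between the groups, and each value below is to be read beside this. ERRg libraries held 21.0 to 23.0 M gene reads, and GFP libraries 27.7 to 35.5 M. The share of reads falling outside exons was 46.7% ± 1.31 for ERRg, against 20.9% ± 3.58 for GFP (SD, n = 4 each). An exact permutation test (two-sided) gave p = 0.0286, which is as small as 70 arrangements can give. Mitochondrially encoded genes held 7.72% ± 0.540 of gene reads in ERRg and 3.98% ± 1.19 in GFP. ESRRG stood at 711 to 888 CPM (counts per M gene reads, scaled by TMM) in ERRg and at 32.7 to 37.1 CPM in GFP, as the labels would have it. Of 7 noradrenergic neuroblastoma markers, 6 averaged at least 1 CPM and TH was listed at 0 in all libraries; the list summed to 350 to 414 CPM in ERRg and to 590 to 679 CPM in GFP. Of 4 neural progenitor markers, PAX6 stayed under 1 CPM, and the list summed to 1074 to 1267 CPM in ERRg and 3537 to 4819 CPM in GFP. All 6 fibroblast markers were detected, with sums of 891 to 985 CPM in ERRg and 1569 to 1759 CPM in GFP, and 3 of 4 epithelial markers, with sums of 171 to 242 CPM in ERRg and 236 to 316 CPM in GFP. The 4 hepatocyte and 3 macrophage markers stayed under 1 CPM each. The part of these differences in the results was not tested.

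The 7 genes did not move as 1 block. With edgeR's quasi-likelihood test and TMM scaling (Benjamini-Hochberg adjusted p under 0.05 over all genes), SREBF2, INSIG1, SQLE, LSS and DHCR7 fell in ERRg, HMGCS1 rose, and IDI1 did not pass the test. That is 1 higher and 5 lower, with a median log2 fold change (ERRg over GFP) of -0.78. Over all 21993 genes tested, 38.8% were higher and 35.9% lower (74.7% in either direction), and the median was 0.09. Among the 13433 coding genes of the same fit, 29% were higher and 50.6% lower, with a median of -0.30. Calls were thus common in both directions, and the count for the 7 genes is a description. Libraries of 6 of the 7 genes did not overlap between the groups, as held for 68.4% of all genes. With upper-quartile scaling 2 of the 7 were higher and 4 lower, beside 50.2% higher and 27.5% lower of all genes (77.7% in either direction, median 0.40). With offsets for GC content, transcript length and gene span fitted jointly on coding genes (the joint offsets), 1 was higher and 4 lower, beside 30.4% higher and 41.5% lower (71.9% in either direction). With GC content as the sole offset 1 was higher and 5 lower, beside 31.9% higher and 40.7% lower (72.6% in either direction). With the share of reads outside exons as a covariate, edgeR called 0 of the 7 (0 also at an unadjusted p under 0.05), with SEs of 0.483 to 0.571. That share does not overlap between the groups, so its part and that of the virus cannot be told apart. RNA came from whole cultures, so fewer cells expressing a gene and less of its RNA per cell cannot be told apart.

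**Figure D1:**
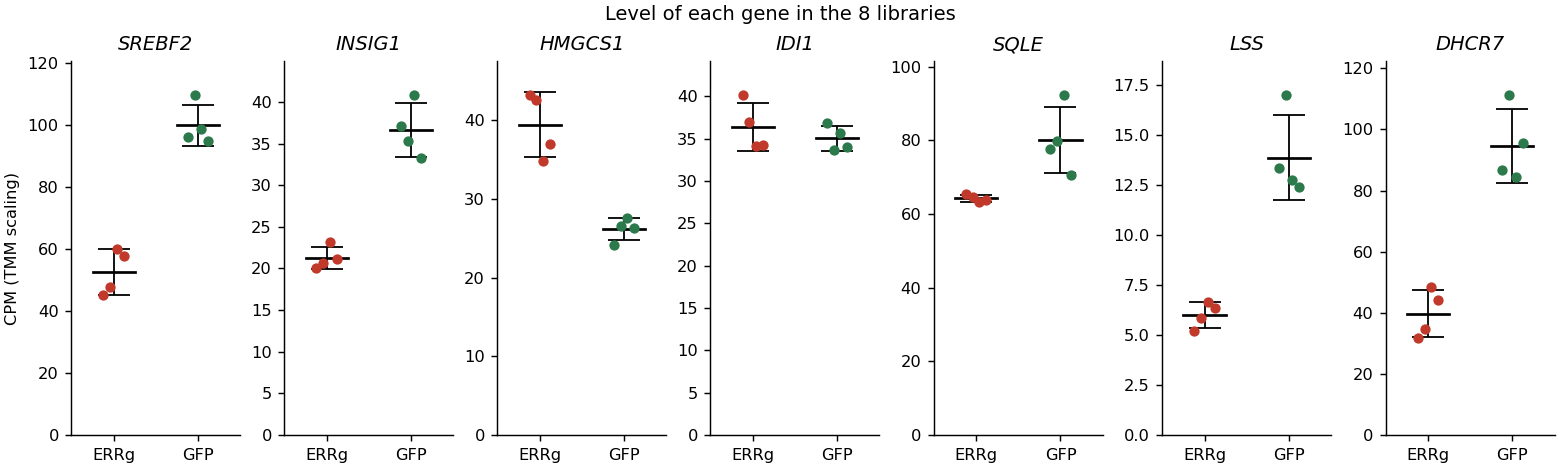
Level of each of the 7 genes in CPM (y axis from 0, a scale of its own in each panel) in the 4 ERRg and 4 GFP libraries; points are libraries, the bar is the mean and the whiskers the SD. ERRg lies below GFP without overlap for SREBF2, INSIG1, SQLE, LSS and DHCR7, above it for HMGCS1, and overlaps it for IDI1.

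SREBF2 (ENSG00000198911.12, chromosome 22, 41833079 to 41907308 on GRCh38) encodes SREBP2. It had 45.2, 47.7, 60.1 and 57.7 CPM in ERRg replicates 1 to 4, against 96.3, 109.7, 98.8 and 95.001 CPM in GFP replicates 1 to 4. Every ERRg library lay below every GFP library, as held for 34.6% of all genes tested. Among coding genes in the GC decile of SREBF2, 77.7% were called lower. Mean levels were 52.7 ± 7.32 CPM for ERRg and 99.97 ± 6.71 CPM for GFP (SD over 4 libraries each, as below), a log2 fold change of -0.92 (SE 0.10, edgeR adjusted p = 5.74e-08). Its size depended on how GC content was treated. With the joint offsets it was -0.21 (SE 0.05, edgeR adjusted p = 6.80e-04), and with offsets for GC content alone it was -0.05 and the call ended (edgeR adjusted p = 0.408). The antisense gene SREBF2-AS1, which overlaps the start of SREBF2, had 28 to 52 reads per library in ERRg and 16 to 44 in GFP, against at least 1099 for SREBF2.

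INSIG1 (ENSG00000186480.13, chromosome 7, 155297776 to 155310235), the sterol-responsive anchor that keeps SCAP and SREBP2 in the endoplasmic reticulum, was lower in ERRg. Its levels were 20.1, 20.7, 23.1 and 21.1 CPM in ERRg replicates and 37.1, 35.3, 40.8 and 33.3 CPM in GFP replicates. The groups did not overlap, and the ERRg libraries lay close together. The means were 21.3 ± 1.32 CPM in ERRg and 36.6 ± 3.22 CPM in GFP, a log2 fold change of -0.78 (SE 0.10, edgeR adjusted p = 2.88e-07). It was -0.48 (edgeR adjusted p = 1.24e-06) with the joint offsets and -0.69 (edgeR adjusted p = 3.04e-08) with GC content alone, the largest falls of the 7 genes in those fits. With upper-quartile scaling it was -0.48.

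HMGCS1 (ENSG00000112972.15, chromosome 5, 43289395 to 43313512) encodes the cytosolic HMG-CoA synthase, an early enzyme of the mevalonate pathway. It was higher in ERRg, with 43.2, 42.6, 34.8 and 37.0 CPM in ERRg replicates and 24.2, 26.6, 27.6 and 26.3 CPM in GFP replicates. Every ERRg library lay above every GFP library, as held for 33.9% of all genes tested. Among coding genes in the GC decile of HMGCS1, 65.1% were called higher. The means were 39.4 ± 4.15 CPM in ERRg and 26.2 ± 1.43 CPM in GFP, a 1.51-fold rise (log2 fold change 0.59, SE 0.10, edgeR adjusted p = 1.36e-05). With the joint offsets it rose by less (0.29, edgeR adjusted p = 2.32e-04), and with GC content alone less again (0.18, edgeR adjusted p = 0.0117).

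IDI1 (ENSG00000067064.11, chromosome 10, 1039152 to 1049170) encodes isopentenyl-diphosphate isomerase, which balances the isoprenoid building blocks. Its levels were 40.2, 37.0, 34.1 and 34.3 CPM in ERRg replicates and 36.9, 33.6, 35.7 and 34.0 CPM in GFP replicates, and the groups overlapped. Its log2 fold change of 0.05 did not pass (SE 0.09, edgeR adjusted p = 0.596). Its sign depended on the scaling: it was called higher with upper-quartile factors (0.36, edgeR adjusted p = 0.00161) and lower with offsets for GC content alone (-0.29, edgeR adjusted p = 1.19e-04). IDI2-AS1, which overlaps IDI1 on the opposite strand, had 69 to 105 reads in ERRg and 39 to 60 in GFP, against at least 826 for IDI1, and rose (log2 fold change 0.96, edgeR adjusted p = 1.30e-04). It was named after its value was seen.

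SQLE (ENSG00000104549.12, chromosome 8, 124998497 to 125022283) encodes squalene epoxidase, the enzyme that commits squalene to sterols. It had 65.3, 64.7, 63.1 and 63.9 CPM in ERRg replicates and 77.6, 79.9, 92.3 and 70.5 CPM in GFP replicates. The groups did not overlap, but the fall was the smallest of the 5: 64.3 ± 0.971 CPM in ERRg and 80.1 ± 9.05 CPM in GFP (log2 fold change -0.32, SE 0.09, edgeR adjusted p = 0.00391). The call ended with upper-quartile scaling (-0.01, edgeR adjusted p = 0.904) and with the joint offsets (-0.08, edgeR adjusted p = 0.192).

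LSS and DHCR7 encode later enzymes. LSS (ENSG00000160285.15, chromosome 21, 46188141 to 46228824), the lanosterol synthase that closes the sterol rings, had 5.18, 5.86, 6.65 and 6.34 CPM in ERRg replicates and 13.3, 17.0, 12.8 and 12.4 CPM in GFP replicates. It rested on the fewest reads of the 7, from 126 to 162 per library in ERRg and 301 to 493 in GFP. The means were 6.01 ± 0.638 CPM in ERRg and 13.9 ± 2.12 CPM in GFP, a log2 fold change of -1.21 (SE 0.13, edgeR adjusted p = 4.36e-08). With the joint offsets it was -0.36 (edgeR adjusted p = 0.00239).

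DHCR7 (ENSG00000172893.16, chromosome 11, 71428193 to 71452868), the reductase of the last step to cholesterol, showed the largest fall of the 7 with TMM. Its levels were 31.8, 34.6, 48.3 and 44.1 CPM in ERRg replicates and 86.7, 111, 84.6 and 95.7 CPM in GFP replicates. All ERRg libraries lay well below all GFP libraries. The means were 39.7 ± 7.81 CPM in ERRg and 94.6 ± 12.1 CPM in GFP (log2 fold change -1.25, SE 0.12, edgeR adjusted p = 1.29e-08). The fall was smaller with the joint offsets (-0.33, edgeR adjusted p = 1.04e-04), and INSIG1 then fell most.

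**Figure D2:**
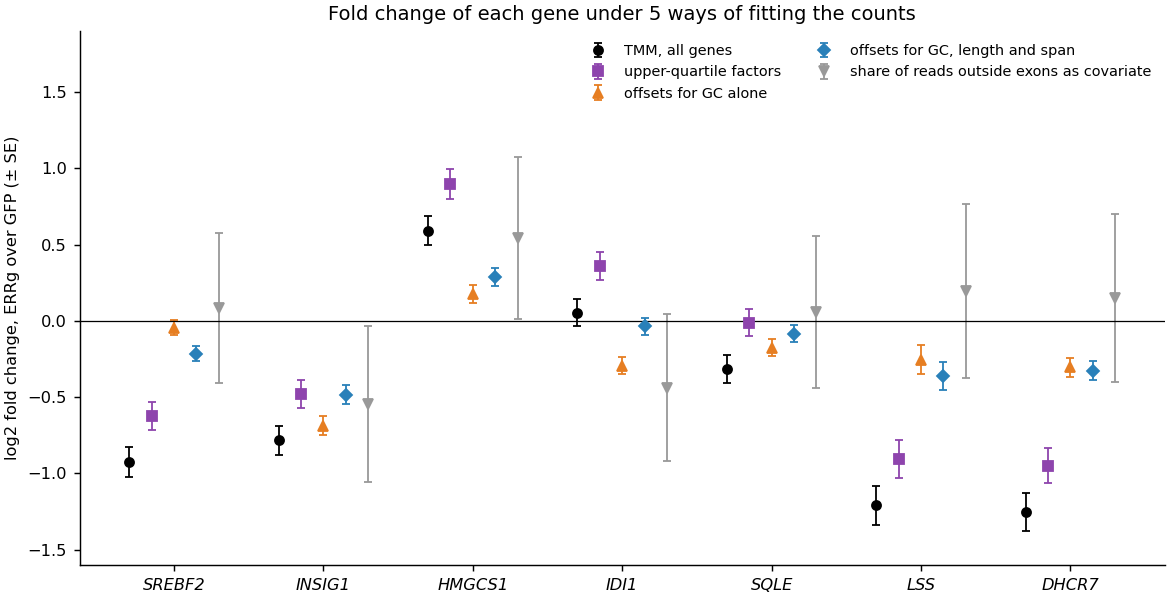
Log2 fold change of ERRg over GFP (y axis, whiskers are the SE) for each of the 7 genes under 5 fits of the same counts. INSIG1 lies below 0 and HMGCS1 above 0 under each of the 5, while SREBF2, LSS and DHCR7 shrink from -0.92, -1.21 and -1.25 with TMM to -0.21, -0.36 and -0.33 with the joint offsets.

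The 4 ERRg libraries were not alike in these genes. SREBF2 had 45.2 and 47.7 CPM in ERRg replicates 1 and 2, and 57.7 and 60.1 CPM in replicates 4 and 3. DHCR7 had 31.8 and 34.6 CPM in replicates 1 and 2 and at least 44.1 CPM in replicates 3 and 4. HMGCS1 went the other way, with at least 42.6 CPM in replicates 1 and 2 and at most 37.0 CPM in replicates 3 and 4. The share of reads outside annotated exons was 48.3% and 47.3% in ERRg replicates 1 and 2, and 45.5% and 45.8% in replicates 3 and 4. Replicates 1 and 2 were close in counts over all genes (chi-square per gene 2.90), as were replicates 3 and 4 (5.02), against 9.87 to 22.4 between these pairs. With each pair summed to 1 library, the same 5 genes fell and HMGCS1 rose. Whether the share of reads outside exons acts on these genes was not tested.

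GC content and fold change ran in opposite directions across most of the 7 genes. HMGCS1 (40.2% GC in its longest annotated transcript) and IDI1 (41.1%) were the members with the lowest GC content, SQLE (46.5%) and INSIG1 (46.0%) lay between, and SREBF2 (57.1%), LSS and DHCR7 (58.3% each) were the highest. Over coding genes, the median log2 fold change was 0.62 in the decile of lowest GC content and -1.33 in the decile of highest. Of the 7 genes, 6 lay between the lower and upper quartile of the coding genes in their own GC decile. INSIG1 was the exception: at -0.78 it lay below the lower quartile of -0.57 in a decile whose median was -0.21. SREBF2 (-0.92) lay close to its decile median of -0.97, and DHCR7 and LSS close to theirs of -1.15. The rule for choosing the genes did not use GC content, although they were chosen with earlier results of these data known.

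**Figure D3:**
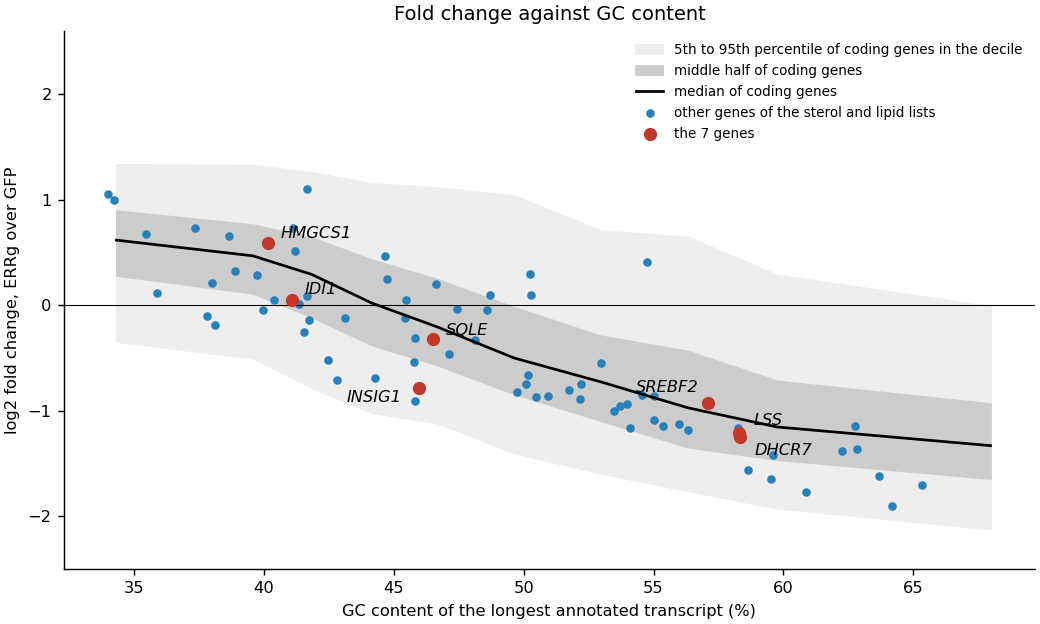
Log2 fold change with TMM (y axis) against the GC content of the longest annotated transcript in percent (x axis). The line and bands give the median, the middle 50 percent and the 5th to 95th percentile of coding genes by GC decile; red points are the 7 genes and blue points the other sterol and lipid genes. INSIG1 lies below the middle band, and the other 6 lie inside it.

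Ratios of reads between genes of the same library do not depend on how libraries are scaled, although they still carry differences in GC content. Of 8 ratios, 7 had an exact two-sided permutation p = 0.0286, the smallest 70 arrangements allow, and an adjusted p of 0.0327 over the 8. The share of other gene pairs that would reach this was not computed. Libraries of 68.4% of all genes did not overlap between the groups, so the count of ratios is a description. Reads of HMGCS1 per read of SREBF2 were 0.955, 0.894, 0.579 and 0.642 in ERRg replicates, against 0.251, 0.242, 0.279 and 0.277 in GFP replicates, a difference in log2 ratio of 1.52. IDI1 (0.98) and SQLE (0.62) were also higher relative to SREBF2, while LSS (-0.27) and DHCR7 (-0.33) were lower. INSIG1 relative to SREBF2 did not pass the test. Its log2 ratio averaged -1.30 ± 0.135 in ERRg and -1.45 ± 0.158 in GFP, with overlapping libraries (exact permutation p = 0.171, adjusted p = 0.171).

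INSIG2, the second INSIG anchor, had 16.0 to 20.7 CPM in ERRg and 11.1 to 12.1 CPM in GFP (log2 fold change 0.68, SE 0.11, edgeR adjusted p = 8.40e-06). With the joint offsets it was 0.19 (edgeR adjusted p = 0.0349), and with GC content alone it was 0.06 and the call ended (edgeR adjusted p = 0.489). Reads of INSIG1 per read of INSIG2 were 1.01, 0.998, 1.45 and 1.12 in ERRg replicates and 3.34, 2.92, 3.38 and 2.75 in GFP replicates, without overlap. INSIG2 has the lower GC content of the pair, 35.4% against 46.0%. SREBF1, which encodes the related factor SREBP1 of fatty acid synthesis, fell further than SREBF2 with TMM (log2 fold change -1.36, edgeR adjusted p = 2.28e-08), and was at -0.30 with the joint offsets and -0.19 with GC content alone. Reads of SREBF2 per read of SREBF1 were 1.91, 2.16, 1.75 and 1.54 in ERRg replicates and 1.35, 1.26, 1.48 and 1.24 in GFP replicates. SREBF1 has the higher GC content, 62.8%.

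**Figure D4:**
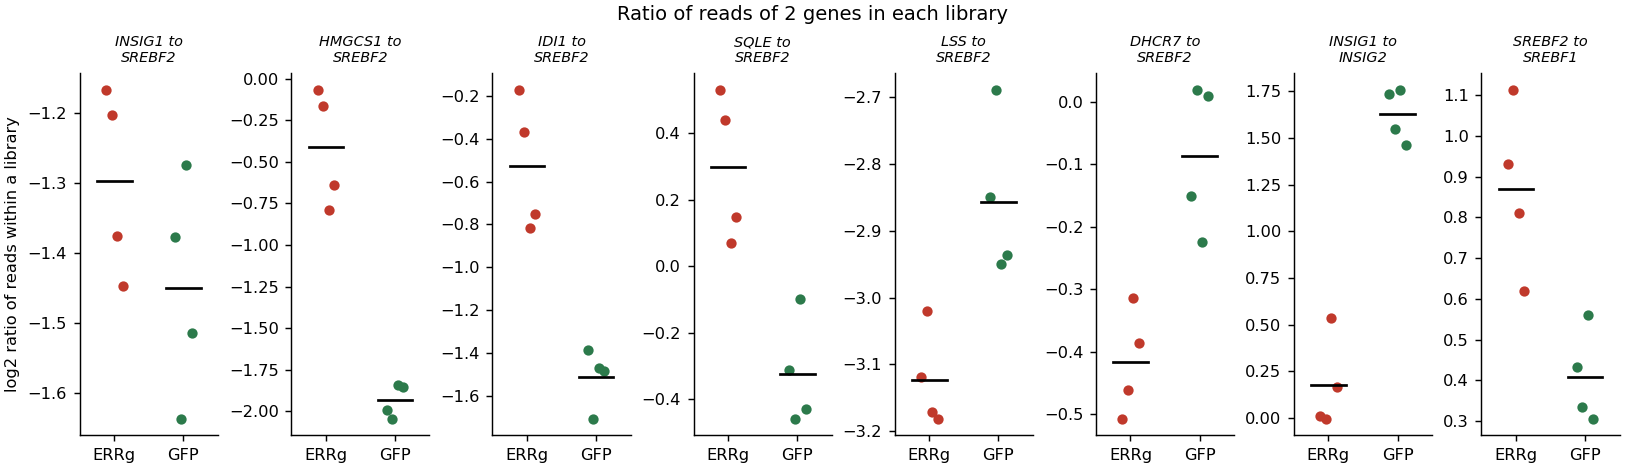
Log2 ratio of the reads of 2 genes within each library (y axis, a scale of its own in each panel, not from 0) for the 4 ERRg and 4 GFP libraries; points are libraries and bars are means. The groups overlap for INSIG1 to SREBF2 and are apart in the other 7 panels.

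Levels per length put the genes in a different order in the groups. Per kilobase of annotated exon, SQLE led in ERRg with 14.9 ± 0.225 CPM, followed by DHCR7 (9.55 ± 1.88), HMGCS1 (8.38 ± 0.882), IDI1 (8.37 ± 0.652), SREBF2 (6.97 ± 0.968), INSIG1 (5.83 ± 0.360) and LSS (0.830 ± 0.0882). In ERRg the libraries of DHCR7, HMGCS1, IDI1 and SREBF2 overlapped one another, as did those of SREBF2 and INSIG1. In GFP the order was DHCR7 (22.7 ± 2.91 CPM per kilobase), SQLE (18.6 ± 2.10), SREBF2 (13.2 ± 0.888), INSIG1 (10.03 ± 0.882), IDI1 (8.07 ± 0.348), HMGCS1 (5.56 ± 0.305) and LSS (1.92 ± 0.293). There, DHCR7 and SQLE overlapped and the other neighbours did not. With the longest transcript as the length the order was the same in both groups.

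Across the 21 enzymes of the pathway, 2 were higher and 12 lower in ERRg with TMM (median log2 fold change -0.66), beside the 29% higher and 50.6% lower among coding genes. With the joint offsets, 2 were higher and 14 lower (median -0.30), beside 30.4% and 41.5% of 13426 coding genes (median -0.07). With GC content alone 2 were higher and 18 lower (median -0.31), beside 31.9% and 40.7% of coding genes. With upper-quartile scaling 4 were higher and 11 lower (median -0.35), beside 50.2% and 27.5% of all genes. Here and below, the shares for upper-quartile scaling are over all genes, coding or not. The share among coding genes was not computed for that fit, so it is not a like comparison for these lists. HMGCS1 and the sterol desaturase SC5D (log2 fold change 0.66, and 0.35 with the joint offsets) were the higher pair in both fits. Of the 21 enzymes, 18 lay below the median of coding genes in their GC decile. All 11 enzymes with a GC content above 50% were lower with TMM, as were 80.3% of the 5898 coding genes of that GC content. Of the 11, 10 were lower with the joint offsets, beside 44.7% of those coding genes. Among the other 10 enzymes, 2 were higher and 1 lower with TMM, beside 47.1% higher and 27.3% lower of coding genes with at most 50% GC. Of the 10, 2 were higher and 4 lower with the joint offsets, beside 33.4% higher and 39.0% lower.

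In the mevalonate part to squalene, 1 of 9 enzymes was higher and 5 lower (median -0.66), beside 29% and 50.6% of coding genes. With upper-quartile scaling 3 were higher and 5 lower, beside 50.2% and 27.5% of all genes. Phosphomevalonate kinase PMVK fell to 14.6 ± 3.04 CPM in ERRg, against 45.8 ± 8.45 CPM in GFP (log2 fold change -1.65, and -0.50 with the joint offsets). Mevalonate diphosphate decarboxylase MVD fell by 1.62 on the log2 scale and farnesyl diphosphate synthase FDPS by 1.13, and both were lower with the joint offsets by less (-0.33 and -0.18). FDFT1, the squalene synthase, had under 3 CPM in each group's mean and was not called (log2 fold change -0.05, SE 0.18). It rested on 60 to 82 reads per library in ERRg and 65 to 82 in GFP. Why its counts were low was not tested.

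**Figure D5:**
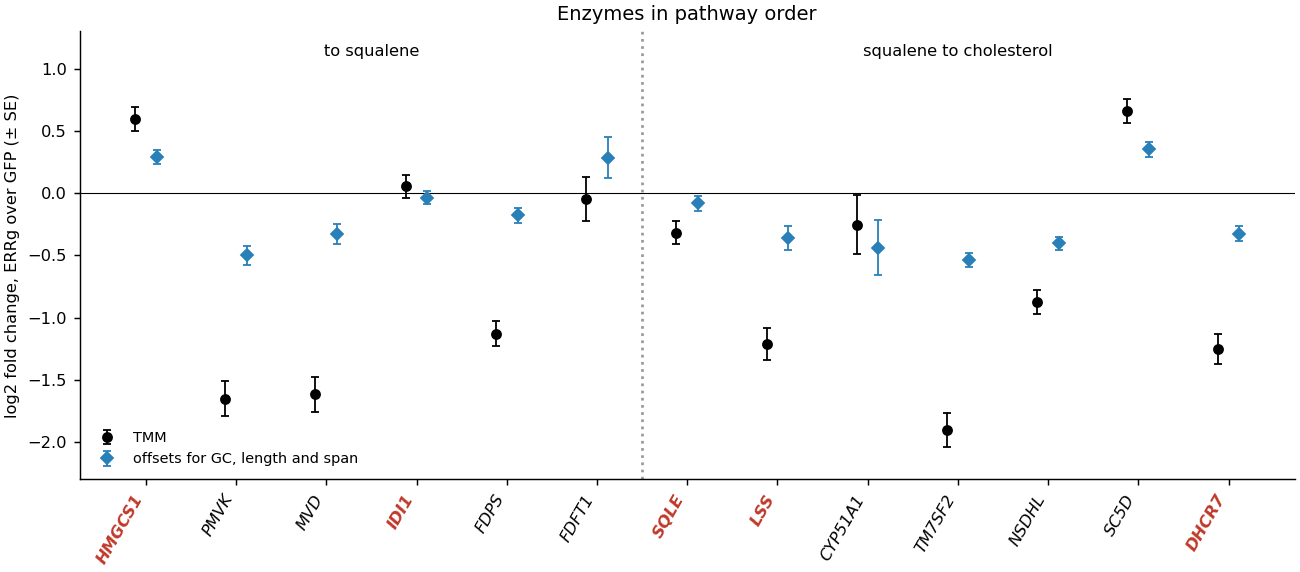
Log2 fold change of ERRg over GFP (y axis, whiskers are the SE) for the enzymes named in the text, in pathway order (x axis), with TMM and with the joint offsets; red names are members of the 7. HMGCS1 and SC5D are called higher in both fits; most falls, such as those of PMVK and TM7SF2, are smaller with the joint offsets.

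From squalene to cholesterol, 1 of 12 enzymes was higher and 7 lower (median -0.60), beside 29% and 50.6% of coding genes. With GC content alone 1 was higher and 11 lower, beside 31.9% and 40.7%. The sterol reductase TM7SF2 fell to 32.6 ± 7.49 CPM in ERRg, against 122 ± 19.5 CPM in GFP (log2 fold change -1.90, edgeR adjusted p = 2.42e-10), and with the joint offsets by 0.54. The sterol dehydrogenase NSDHL fell by 0.87, and with the joint offsets by 0.40. CYP51A1, the lanosterol demethylase, averaged 1.05 CPM in ERRg and 1.25 CPM in GFP and was not called. Annotated genes overlap it on its own strand, and reads in more than 1 gene were not counted. The part of this in its level was not tested. The share of reads in more than 1 gene was 5.05% to 5.96% in ERRg libraries and 10.9% to 14.1% in GFP libraries.

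Among 9 genes of SREBP processing and sterol sensing, INSIG2 was higher and 7 were lower (median -0.78), beside 29% and 50.6% of coding genes, and with the joint offsets INSIG2 was higher and the other 8 lower (median -0.45), beside 30.4% and 41.5%. With GC content alone edgeR called 0 higher (0 at an unadjusted p under 0.05) and 7 lower. SCAP, the escort of SREBP2, fell to 41.5 ± 6.83 CPM in ERRg, against 108 ± 14.3 CPM in GFP (log2 fold change -1.39, and -0.41 with the joint offsets). The protease gene MBTPS1 fell by 0.86, and with the joint offsets by 0.45. Of 8 genes for turnover of SQLE and other pathway proteins, 3 were higher and 4 lower, beside the same 29% and 50.6%. AUP1 (-1.42, and -0.23 with the joint offsets) and the ligase SYVN1 (-1.18, and -0.28) were among the lower. The joint offsets gave 2 higher and 5 lower, beside 30.4% and 41.5%. With the ERRg libraries summed in pairs edgeR called 0 higher (1 at an unadjusted p under 0.05), with the replicate block 1, without a filter on low counts 1 and with upper-quartile scaling 4, each with 4 lower. In that order, these fits called 33.4%, 37.2%, 21.9% and 50.2% of all genes higher, and 32.1%, 34.8%, 20.5% and 27.5% lower.

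Of 9 tested genes of sterol uptake and transport, 2 were higher and 6 lower (median -0.71), beside 29% and 50.6% of coding genes. Under the joint offsets 3 were higher and 5 lower, beside 30.4% and 41.5%. The SREBP2 target TMEM97 fell by 0.91, and with the joint offsets by 0.58. STARD4, a sterol carrier and also an SREBP2 target, went the other way: it rose to 101 ± 15.4 CPM in ERRg, against 50.9 ± 4.42 CPM in GFP (log2 fold change 1.00, edgeR adjusted p = 4.42e-08), and with the joint offsets by 0.50. SCARB1, a lipoprotein receptor, fell by 1.09 and GRAMD1A by 1.15, and GRAMD1A did not pass with the joint offsets (edgeR adjusted p = 0.311). Of 8 tested genes of sterol sensing by LXR, efflux and esterification, 2 were higher and 4 lower (median -0.18), near the coding-gene shares. With upper-quartile scaling 4 were higher and 2 lower (median 0.13), beside 50.2% higher and 27.5% lower of all genes, coding or not, in that fit. The LXR-beta receptor gene NR1H2 fell by 1.77 (with the joint offsets by 0.80), NR1H3, for LXR-alpha, by 1.15 (not called with the joint offsets, edgeR adjusted p = 0.0631), and the esterase NCEH1 rose by 0.73 (with the joint offsets by 0.36).

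Likeness of profile was measured as the root mean square difference, over the 8 libraries, between log2 CPM values centred on each gene's own mean, among 9791 other coding genes. DHX38 and ECE1 lay nearest to SREBF2 (0.023 each), YWHAH and CRKL to INSIG1, and GNAI3 and DNAJC10 to HMGCS1. DONSON and ZDHHC2 lay nearest to IDI1, ATF6 and ARCN1 to SQLE, MRPL57 and HOXC6 to LSS, and DHX37 and VGF to DHCR7. No member was among the nearest genes of another: the closest pair was LSS and DHCR7, with DHCR7 at rank 616 from LSS (0.12). HMGCS1 stood at rank 8243 from SREBF2 (0.79).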

How the data were processed

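RNA of SH-SY5Y cells was sequenced after rRNA depletion as directional libraries, per the labels' protocols. The deposited values are unnormalised read counts for each gene. HTSeq 0.11.3, STAR 2.7.8a, Trim Galore 0.6.6, DESeq2 and CASAVA are named, with the build GRCh38, in the submitters' processing notes (per the submitters' processing notes, without roles). Neither the annotation release nor the strand setting of the counting is given. Library sizes and tests leave out 5 summary lines that name no gene. A name table paired 60463 identifiers with symbols. Positions, GC content and lengths came from GENCODE 29 on GRCh38.

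Counts were compared with edgeR 4.0.16 in R 4.3.3 (quasi-likelihood, TMM, filterByExpr, group as the sole term, two-sided, Benjamini-Hochberg over all genes). Offsets were fitted per library as natural splines (5 degrees of freedom each) of centred log2 CPM on GC content, log2 transcript length and log2 span over coding genes. Ratios added 0.5 to counts, and exact permutation tests used scipy 1.17.1. The fits and tests were tested on simulated data. With counts simulated at a single dispersion, the main fit recovered 42% of log2 changes of -0.5 and 40% of 0.5. For changes of -1 and 1 it recovered 88% and 74%. A gene that was not called may therefore have changed. Depth limits precision: total gene reads per library are given with the results, and the 7 genes rested on 126 to 3225 reads each. Alternatives were other scalings, filters and gene sets, DESeq2 1.42.0, limma-voom 3.58.1, a covariate, replicate blocks, each library left out, and ERRg libraries summed in pairs.

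The members and lists were chosen with earlier results of these data known. Besides the 7 genes and ESRRG, the 3 genes with the smallest p in each of 8 lists, INSIG2, SREBF1 and the 2 nearest genes by profile were named; values of some genes that this rule picks are not reported here. FDFT1, CYP51A1, SC5D and STARD4 were named outside that rule, after their values were seen. RABGGTA, which most cells use, is listed at 0, so a 0 was not read as absence.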

Additional observations from a re-analysis of the deposited data

Results flagged for a closer look

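A single value stood apart. INSIG2 was at 11.1 CPM in GFP replicate 1, and the other 3 GFP libraries lay within a narrow band from 12.05 to 12.1 CPM, so the gap of the lowest library was most of the range. In all, 38 sets of 4 values were examined, and chance alone sets apart about 1 in 20. All 4 GFP values lay below the lowest ERRg value of 16.0 CPM.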

How the results depend on the processing

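The calls of INSIG1, HMGCS1, LSS and DHCR7 were kept under every alternative run except the covariate below, and those of SREBF2 under every one except the covariate and offsets for GC content alone (-0.045). SQLE was not called with coding genes alone (-0.0023), upper-quartile factors (-0.012), or the joint offsets (GC content, length, span) without (-0.084) or with the replicate block (-0.081), and its sign turned with library totals (0.087). IDI1 became called higher with coding genes alone (0.37), library totals (0.46) and upper-quartile factors (0.36), making 2 members higher in each. In that order, these fits called 40.8%, 53.6% and 50.2% of all their genes higher. IDI1 turned to -0.29 with offsets for GC content alone, where it was called lower. With the joint offsets it was -0.036, without or with the replicate block. When the share of reads outside exons, whose values do not overlap between the groups, entered as a covariate, edgeR called 0 members higher and 0 lower (0 at an unadjusted p under 0.05, SE 0.483 to 0.571). The values were then 0.086 for SREBF2, -0.54 for INSIG1, 0.54 for HMGCS1, -0.44 for IDI1, 0.058 for SQLE, 0.19 for LSS and 0.15 for DHCR7, and over all genes 6 were higher and 2 lower. Without 1 replicate at a time, log2 fold changes ranged from -1.03 to -0.87 for SREBF2, -0.89 to -0.77 for INSIG1, 0.47 to 0.63 for HMGCS1, -0.028 to 0.071 for IDI1, -0.44 to -0.32 for SQLE, -1.34 to -1.15 for LSS and -1.40 to -1.17 for DHCR7. Some fits covered coding genes alone. Without offsets, 5474 of 13433 were then higher (40.8%) and 5322 lower (39.6%). In the main fit, 29% of 13433 coding genes were higher and 50.6% lower. Of 13426, offsets for GC content gave 4280 (31.9%) higher and 5470 (40.7%) lower. The joint offsets gave 4078 (30.4%) higher and 5572 (41.5%) lower, or 3951 (29.4%) and 5407 (40.3%) with the replicate block. The cause of these changes was not tested. Same-numbered libraries did not deviate together (correlations -0.13 to 0.08), and ERRg replicate 2 correlated more with GFP replicate 1 than with GFP replicate 2. The replicate block gave 8191 genes higher and 7653 lower and changed no call of the 7 genes. LSS, with 126 reads at the least, is the value most limited by depth.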

Other observations

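Genes of the branches beside cholesterol were called in both directions. Of 12 fatty acid synthesis genes, many of them SREBP1 targets, 3 were higher and 6 lower (median log2 fold change -0.25), near the 29% higher and 50.6% lower among all coding genes, against 2 higher and 7 lower when offsets took in GC content, length and span. The desaturase FADS2 fell to 213 ± 38.1 CPM in ERRg, against 630 ± 77.7 CPM in GFP (-1.56, with the offsets -0.78), fatty acid synthase FASN fell by 1.70 (with the offsets by 0.58), and ATP citrate lyase ACLY, which supplies acetyl-CoA to both pathways, fell by 0.89 (with the offsets by 0.41). Of 11 tested genes of the isoprenoid branches, which draw on the pathway above squalene, 4 were higher and 4 lower (median 0.05), beside the same 29% and 50.6%, against 3 higher and 5 lower under the offsets. The prenyltransferase subunit PGGT1B (1.06, with the offsets 0.33) and RABGGTB (0.74, with the offsets 0.45) rose, and the methyltransferase ICMT fell by 0.82 (with the offsets by 0.33). With upper-quartile scaling 6 genes of the isoprenoid list were higher and 3 lower, and 6 of the fatty acid list were higher and 5 lower (median 0.06). That fit called 50.2% of all genes, coding or not, higher and 27.5% lower (median 0.40). The fit with the offsets called 30.4% of coding genes higher and 41.5% lower.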
